A study of Mus musculus with 8 samples.

Results

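The genes described here are 8 linked to growth arrest and to the tumour suppressor p53: Cdkn1a, Gadd45a, Gadd45b, Gadd45g, Btg2, Mdm2, Ccng1 and Trp53inp1. They were taken by gene symbol from a table of 48709 genes, and all 8 were found and passed the filter on low counts, as did 14712 genes in all. Expression was measured by poly(A) RNA sequencing of gastrocnemius, a calf muscle, from C57BL/6 mice at 16 weeks of age. The control group (4 libraries, called A to D) came from mice with a floxed glucocorticoid receptor gene, Nr3c1. The other group (4 libraries, called E to H) has the genotype label GR(i)skm-/- and carries the same floxed gene together with HSA-Cre-ERT2, an inducible Cre recombinase driven by the human skeletal actin promoter, which is active in myofibres. Other cells of the muscle keep the receptor in this design, and neither the inducing agent nor whether controls received it is given in the sources used here. Nothing in the labels ties each library to its own mouse, and p-values therefore speak to the spread among these 8 libraries.

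The p53 protein is a transcription factor that is kept at a low level by Mdm2, a ubiquitin ligase that marks it for degradation, and Mdm2 is itself a p53 target, which closes a feedback loop. Cdkn1a encodes p21, an inhibitor of cyclin-dependent kinases that holds cells in G1. The 3 Gadd45 proteins are small stress-induced proteins that bind the kinase Map3k4 and cell cycle proteins, and Btg2 is an antiproliferative protein that binds the CCR4-NOT deadenylase. Ccng1 encodes cyclin G1, a partner of protein phosphatase 2A, and Trp53inp1 a stress protein that acts with p53 and in autophagy. Myofibres do not divide, and in muscle p21 and Gadd45a are best known for their induction on denervation and disuse.

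Promoter windows from RefSeq (GRCm38.p6, from 250 bases before to 50 bases after a transcription start) were matched by symbol for 7 of the 8 genes. The motifs searched, on both strands, were 6: the p53 full site, a pair of its half-sites side by side with at most 1 mismatch over 20 bases; the glucocorticoid response element, GNACA and TGTNC with any 3 bases between them; the cyclic AMP response element TGACGTCA; the serum response element; the E-box CACGTG; and the CCAAT box, CCAAT. No match of a motif overlapped a match of another. The p53 full site was found in the upstream of the 2 windows of Cdkn1a, 51 bases before the start, and in the window of Ccng1, 195 bases before the start. Of all 32851 windows of 300 bases, 0.0883% held such a site. The Btg2 window held the cyclic AMP response element 166 bases before its start, as did 1.79% of all windows. The glucocorticoid and serum response elements, present in 0.475% and 1.63% of all windows, had no match in the windows of these genes, which says only that the letters are not in these windows. The E-box, present in 7.15% of all windows, was found in the windows of Gadd45b and Gadd45g. The CCAAT box, present in 37.4% of all windows, was found in those of Gadd45a, Gadd45b, Gadd45g, Btg2, Mdm2 and Ccng1. In the Mdm2 window it lay on the opposite strand, 72 bases before the start, and was the sole match of the motifs searched. The lack of a p53 full site there does not speak to the rest of the Mdm2 gene, which was not searched. The windows with a p53 full site or a cyclic AMP response element are shown with the bases of these motifs in capitals. That of Mdm2, the gene that differed between the groups, is shown beside them. Matches of the CCAAT box are left in lower case.
Cdkn1a, upstream start, chr17:29090729-29091028, plus strand: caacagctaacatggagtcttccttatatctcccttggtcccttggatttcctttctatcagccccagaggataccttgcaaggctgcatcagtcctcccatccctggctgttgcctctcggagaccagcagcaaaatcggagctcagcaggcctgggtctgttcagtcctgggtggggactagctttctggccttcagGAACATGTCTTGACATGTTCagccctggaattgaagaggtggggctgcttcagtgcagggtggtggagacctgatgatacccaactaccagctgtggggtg
Ccng1, chr11:40755237-40755536, minus strand: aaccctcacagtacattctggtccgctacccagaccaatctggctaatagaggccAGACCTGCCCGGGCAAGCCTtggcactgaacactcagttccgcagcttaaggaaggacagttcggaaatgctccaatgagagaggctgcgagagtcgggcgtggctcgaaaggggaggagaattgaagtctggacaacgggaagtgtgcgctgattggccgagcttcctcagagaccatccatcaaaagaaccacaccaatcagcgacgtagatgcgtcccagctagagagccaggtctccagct
Btg2, chr1:134079106-134079405, minus strand: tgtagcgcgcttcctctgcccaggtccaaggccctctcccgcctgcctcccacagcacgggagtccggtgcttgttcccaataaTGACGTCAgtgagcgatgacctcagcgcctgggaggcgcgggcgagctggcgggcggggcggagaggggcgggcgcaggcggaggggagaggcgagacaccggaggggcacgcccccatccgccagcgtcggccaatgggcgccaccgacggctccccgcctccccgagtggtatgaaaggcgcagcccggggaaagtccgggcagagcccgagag
Mdm2, chr10:117710709-117711008, minus strand: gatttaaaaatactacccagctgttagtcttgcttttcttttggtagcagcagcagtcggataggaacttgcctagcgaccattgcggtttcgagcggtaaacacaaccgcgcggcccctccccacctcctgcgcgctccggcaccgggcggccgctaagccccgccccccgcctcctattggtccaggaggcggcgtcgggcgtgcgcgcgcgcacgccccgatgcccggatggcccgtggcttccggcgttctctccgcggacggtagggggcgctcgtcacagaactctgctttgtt

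Library totals ran from 36680510 to 52200305 counts, and the fewest counts of any of the 8 genes in a library was 382, for Gadd45b in library A. Levels are given as CPM, the library-scaled counts with TMM factors. The targeted gene went against its label in some libraries: Nr3c1 was at 83.2 to 90.0 CPM in control and at 87.1, 38.6, 96.7 and 42.8 CPM in libraries E to H, so each direction given here is that of the libraries labelled knockout. Markers are said to fall or rise where edgeR's adjusted p was under 0.05, as for 8.45% of all genes tested. All 12 myofibre markers were tested and 2 fell, with summed levels of 194900 to 249794 CPM in control and 179734 to 206735 CPM in the other group. Markers of other cells moved with the groups as well. All 9 Schwann cell markers fell, from summed levels of 182 to 333 CPM in control to 67.6 to 91.3 CPM, and 6 of 10 smooth muscle and pericyte markers fell, from 875 to 1018 CPM to 746 to 813 CPM. Of 10 endothelial markers 3 fell and 1 rose (464 to 500 against 426 to 453 CPM), and of 10 macrophage markers 2 rose (48.4 to 82.3 against 71.0 to 100 CPM). With called and uncalled markers together, the log2 fold change was above 0 for 1 of 12 myofibre, 4 of 10 endothelial and all 10 macrophage markers. It was above 0 for 1 of 10 smooth muscle and pericyte markers, 6 of 10 fibro-adipogenic progenitor markers and all 8 adipocyte markers. Of the tested markers of satellite cells it was above 0 for 4 of 8, and of neutrophils for 3 of 4. For lymphocytes and red blood cells it was above 0 for all 6 and all 5 tested. Of 10 fibro-adipogenic progenitor markers 2 rose and 1 fell, and no tested marker of satellite cells, adipocytes, red blood cells, neutrophils or lymphocytes was called by edgeR (1 satellite cell marker at an unadjusted p under 0.05, which DESeq2 called). Lymphocyte markers summed to 31.7, 23.6 and 23.1 CPM in libraries A, E and G and to at most 3.40 CPM in the other libraries. In whole muscle, fewer cells of a type and less RNA per cell cannot be told apart, and the part of these cell types in the results was not tested.

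Per kilobase of merged exon, Ccng1 was the most abundant of the 8 genes in control muscle, at 247 ± 25.1 CPM per kb (SD, n = 4), a level above that of 99.2% of tested protein-coding genes. Gadd45g followed at 99.2 ± 44.6 CPM per kb. Their control ranges, 221 to 281 and 45.7 to 146 CPM per kb, did not overlap. Mdm2 (11.1 CPM per kb), Gadd45a (9.81), Gadd45b (8.82), Btg2 (8.20) and Cdkn1a (7.67) came next, and the ranges over control libraries of neighbours in this order overlapped. Among all pairs of these 5, the ranges were separate only for Mdm2 (10.9 to 11.2 CPM per kb) and Cdkn1a (5.38 to 10.8 CPM per kb). Trp53inp1 was lowest, at 2.39 ± 0.498 CPM per kb, and its highest control library, at 3.06 CPM per kb, lay below the lowest of every other gene of the group. The glucocorticoid receptor gene itself stood at 11.3 ± 0.447 CPM per kb in control.

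Between the groups, 1 of the 8 genes passed the test: Mdm2 fell in the libraries labelled knockout, and none rose. The test was edgeR's quasi-likelihood test with Benjamini-Hochberg adjustment over all 14712 genes and a threshold of 0.05, which called 8.45% of all genes, 4.41% as lower and 4.04% as higher. A count of 1 in 8 is close to that background. The log2 fold change, always of the libraries labelled knockout over control, was below 0 for 7 of the 8 genes, with a median of -0.48 against -0.01 over all genes tested. Without control library B the median was -0.25 and 6 of 8 were below 0. The plot of values by library shows that the 2 groups overlapped for each of the 8 genes but Mdm2.

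**Figure D1:**
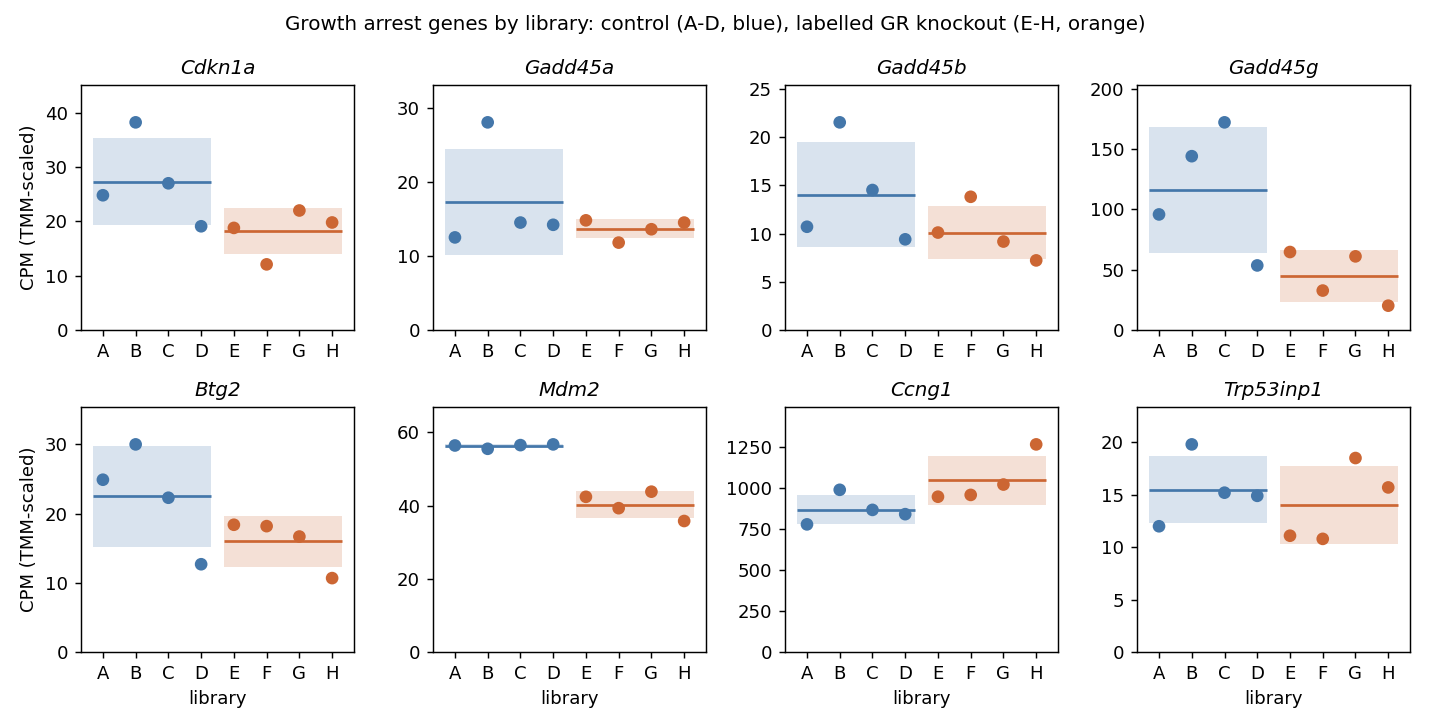
CPM (TMM-scaled, linear axis from 0) of the 8 genes in each library, with control libraries A to D in blue and libraries E to H, labelled knockout, in orange. Lines are group means and bands are ± 1 SD (n = 4 each). Only for Mdm2 do the groups not overlap, with 55.5 to 56.7 CPM in control and 35.8 to 43.8 CPM in the other group.

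Mdm2 (ENSMUSG00000020184, protein-coding, chromosome 10, 117688875 to 117710758 on the minus strand of mm10), the ubiquitin ligase that restrains p53, was at 56.4, 55.5, 56.5 and 56.7 CPM in the control libraries A to D. Libraries E to H held 42.4, 39.3, 43.8 and 35.8 CPM. Every library labelled knockout lay below every control library, as was the case, in either direction, for 16.7% of all genes tested. The group means were 56.3 ± 0.541 and 40.3 ± 3.56 CPM (SD, n = 4 each), and the log2 fold change was -0.48 ± 0.07 (SE; edgeR adjusted p = 0.00374). The control libraries were unusually alike, with a coefficient of variation of 0.961% where the median over all genes tested was 11.8%. In the other group it was 8.83% against a median of 9.95%. At the 2009 to 2579 counts of the control libraries, counting error alone is expected to give a wider spread than 0.961%. Their closeness is therefore no measure of how little Mdm2 varies between muscles. An exact two-sided permutation test on mean log2 CPM, with 70 ways to arrange the libraries, gave p = 0.0286, the smallest it can give. Any gene whose groups do not overlap gets this p, so it adds nothing to the lack of overlap.

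The fall of Mdm2 was seen in libraries E and G, whose Nr3c1 was at the control level, as well as in F and H, whose Nr3c1 was low. Without E and G the log2 fold change was -0.58 (edgeR adjusted p = 0.0146), in a fit that called 1.49% of all genes. With 1 library left out it ran from -0.52 to -0.43, with a highest adjusted p = 0.0183, and over all 17 alternative settings it stayed between -0.58 and -0.41 and was called in each. The lower levels of Schwann cell and smooth muscle markers went with the same libraries, and their part in the fall of Mdm2 was not tested.

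The p53 gene itself and the second Mdm-family regulator did not pass the test; both were chosen for mention after their values were seen. Trp53 was at 18.6, 15.0, 16.6 and 16.3 CPM in control and at 16.4, 15.9, 15.1 and 16.8 CPM in libraries E to H. Its groups overlapped, with a log2 fold change of -0.05 (95% interval -0.22 to 0.13; edgeR adjusted p = 0.733). Mdm4, which binds and inhibits p53 with Mdm2, averaged 38.2 ± 3.29 CPM in control and 43.7 ± 2.79 CPM in the other group, a log2 fold change of 0.20 that did not pass (edgeR adjusted p = 0.130).

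Cdkn1a (ENSMUSG00000023067, chromosome 17, 29090976 to 29100727, plus strand) was at 24.8, 38.2, 27.0 and 19.1 CPM in libraries A to D (control) and at 18.8, 12.1, 22.0 and 19.8 CPM in libraries E to H. Library B was high and library F low, and control library D lay within the range of the other group. The log2 fold change was -0.59 ± 0.24 (95% interval -1.14 to -0.03, not adjusted), which did not pass after adjustment (edgeR adjusted p = 0.164; exact permutation p = 0.0857). The DESeq2 Wald test, which called 3 of the 8 genes (Mdm2, Cdkn1a and Gadd45g) and 13.8% of all genes, gave an adjusted p = 0.0449, and without library B the log2 fold change was -0.37 (edgeR adjusted p = 0.252). A transcript of unconfirmed type on the opposite strand, AC167363.2, shares 273 exon bases with Cdkn1a, and whether counting used strand is not given in the sources used here, so reads of this pair may be mixed.

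Ccng1 (ENSMUSG00000020326, chromosome 11, 40748552 to 40755311, minus strand), the cyclin G1 gene and the other of the group with a p53 full site in its window, was at 777, 987, 865 and 839 CPM in control. Libraries E to H held 945, 956, 1019 and 1263 CPM. Library H was the highest of the 8, while control library B lay above E and F, so the groups overlapped. It was the sole gene of the 8 with a log2 fold change above 0, at 0.27 ± 0.11 (95% interval 0.04 to 0.50, not adjusted; edgeR adjusted p = 0.131). With the dependence of each library on transcript GC content removed, called removal of the GC trend here, it was 0.07 (adjusted p = 0.626), and without library H 0.17 (adjusted p = 0.303). The longest Ccng1 transcript has a GC content of 40.8%.

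Trp53inp1 (ENSMUSG00000028211, chromosome 4, 11156431 to 11174379, plus strand) was at 12.0, 19.8, 15.2 and 14.9 CPM in control and at 11.1, 10.8, 18.5 and 15.7 CPM in libraries E to H. The groups overlapped over most of their range. Its log2 fold change was -0.14 (95% interval -0.60 to 0.31; edgeR adjusted p = 0.690), and it was 0.01 without library B and -0.39 with the GC trend removed (adjusted p = 0.988 and 0.185).

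Btg2 (ENSMUSG00000020423, chromosome 1, 134075170 to 134079120, minus strand) was at 24.9, 30.0, 22.3 and 12.7 CPM in libraries A to D (control) and at 18.4, 18.2, 16.7 and 10.7 CPM in libraries E to H. Within each group 1 library was well below the others, D in control and H among those labelled knockout. The log2 fold change of -0.50 ± 0.28 did not pass (95% interval -1.13 to 0.14; edgeR adjusted p = 0.290). It was -0.69 without D, -0.31 without B and -0.34 without H (adjusted p = 0.0678, 0.488 and 0.495).

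Gadd45g (ENSMUSG00000021453, chromosome 13, 51846678 to 51848468, plus strand) had the largest estimated difference of the 8 genes and the widest spread. It was at 95.8, 144, 172 and 53.6 CPM in the control libraries A to D. Libraries E to H held 64.7, 32.8, 61.1 and 20.3 CPM. Libraries E and G lay above control library D, so the groups overlapped, while F and H, in which Nr3c1 was low, were below all controls. A link between the levels of Gadd45g and Nr3c1 was not tested. The group means were 116 ± 52.3 and 44.7 ± 21.7 CPM (SD, n = 4 each). The log2 fold change of -1.38 ± 0.50 did not pass (95% interval -2.57 to -0.20, not adjusted; edgeR adjusted p = 0.135; exact permutation p = 0.0857). By the DESeq2 Wald test the adjusted p fell just under the threshold. The estimate was -2.13 without E and G and kept its sign with any 1 library left out, at -1.62 to -1.13, but passed edgeR's test in none of these fits (lowest adjusted p = 0.0944, without D).

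The other Gadd45 genes differed less. Gadd45a (ENSMUSG00000036390, chromosome 6, 67035096 to 67037457, minus strand) was at 12.5, 28.0, 14.5 and 14.2 CPM in control and at 14.8, 11.8, 13.6 and 14.5 CPM in libraries E to H. Control library B stood alone, and the other 7 libraries lay between 11.8 and 14.8 CPM. The log2 fold change of -0.34 (95% interval -0.90 to 0.22; edgeR adjusted p = 0.404) was -0.00 without B (adjusted p = 0.990). The noncoding transcript E230016M11Rik on the opposite strand shares 337 exon bases with Gadd45a, and their reads may likewise be mixed.

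Gadd45b (ENSMUSG00000015312, chromosome 10, 80930073 to 80932204, plus strand) was at 10.7, 21.5, 14.5 and 9.40 CPM in control and at 10.1, 13.8, 9.17 and 7.22 CPM in libraries E to H. Library B was again the highest, and the groups overlapped. Its log2 fold change was -0.48 (95% interval -1.16 to 0.20; edgeR adjusted p = 0.332) and -0.19 without B (adjusted p = 0.619).

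**Figure D2:**
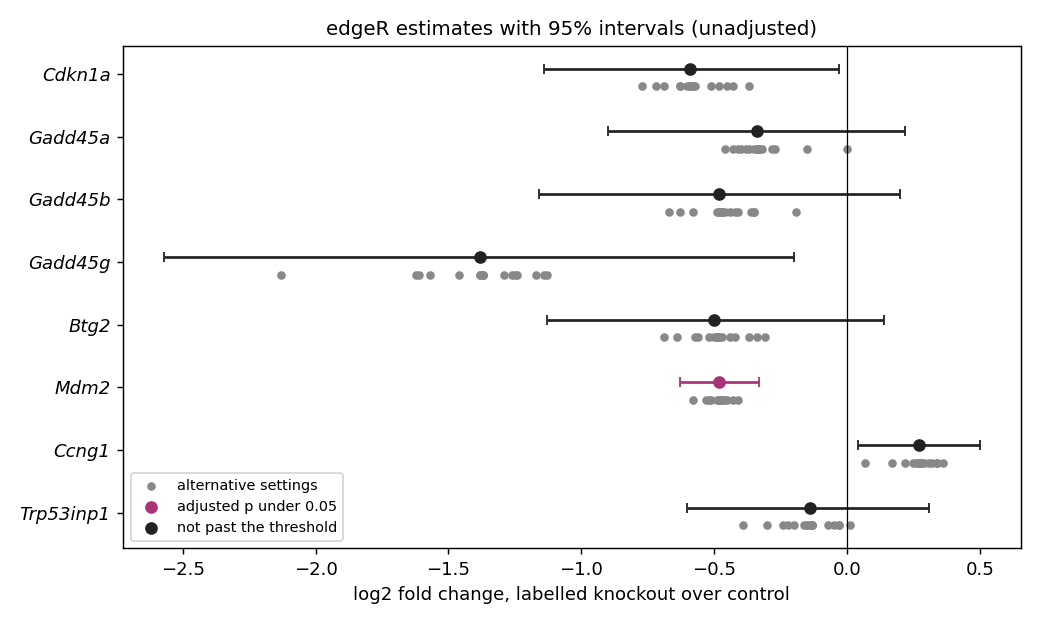
Log2 fold change of each gene (libraries labelled knockout over control) with its unadjusted 95% interval from the edgeR fit, and, in grey, the estimates under 17 alternative settings. Mdm2 alone is past the adjusted threshold, with alternatives between -0.58 and -0.41. Gadd45g has the widest interval, -2.57 to -0.20, and its alternatives reach -2.13.

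The 8 genes were unlike in how they varied between libraries of the same group. In control the coefficient of variation was 45.0% for Gadd45g, 41.3% for Gadd45a, 38.7% for Gadd45b, 32.4% for Btg2 and 29.4% for Cdkn1a, all above the median of 11.8% over the genes tested, and 10.2% for Ccng1. Library B was the highest control library for 6 of the 8 genes, all but Gadd45g and Mdm2. Library D was the lowest for Cdkn1a, Gadd45b, Gadd45g and Btg2. In log2 CPM relative to the group mean, library D was at -0.99 for Gadd45g and -0.76 for Btg2, and library H at -0.99 and -0.55, as the map of deviations shows. Over the 8 libraries, each as a deviation from its group mean, Pearson's r was 0.78 between Gadd45g and Btg2 and 0.78 between Gadd45b and Btg2, 0.74 between Cdkn1a and Gadd45a, 0.72 between Ccng1 and Trp53inp1 and 0.71 between Cdkn1a and Trp53inp1. For Mdm2 it was 0.67 with Gadd45g, -0.65 with Ccng1 and from -0.08 to 0.38 with the other genes. These Mdm2 values rest almost wholly on libraries E to H, because its control deviations were only -0.02 to 0.01. These are descriptions over 8 libraries that share their depth and scaling within each point.

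**Figure D3:**
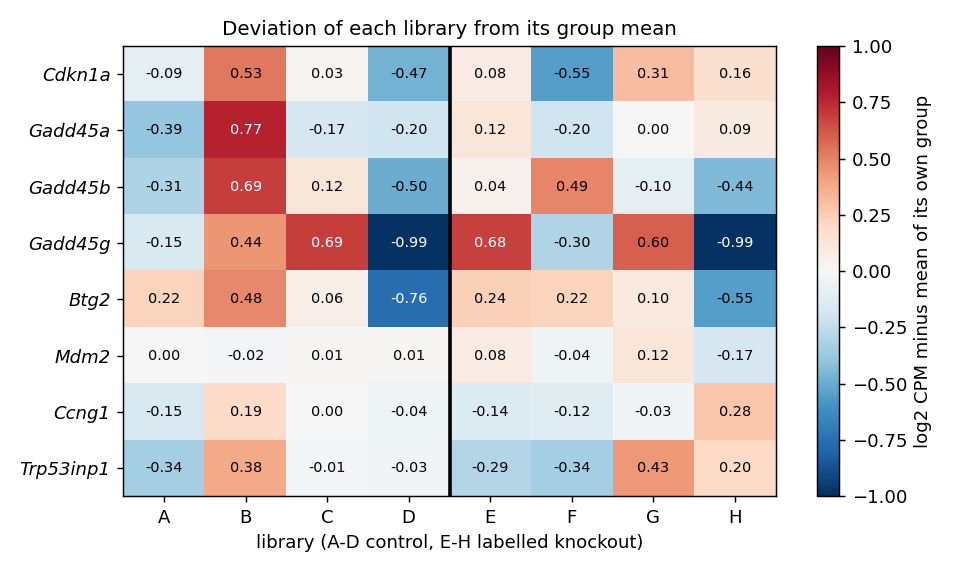
Deviation of each library from the mean of its own group in log2 CPM (prior count 2), for the 8 genes, with control libraries left of the black line and libraries labelled knockout right of it. Red is above and blue below the group mean. Library B is above the mean for 7 genes and library D is at -0.99 for Gadd45g, while control values of Mdm2 stay within -0.02 to 0.01.

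Genes whose log2 CPM followed each member most closely over the 8 libraries, among 10574 genes, were found by Pearson's r. Closest to Mdm2 were Supt7l, which encodes a subunit of the SAGA-type coactivator complex, and Ctxn3 (r = 0.99 each). Cdkn1a was followed by Kcnh2, a potassium channel gene (r = 0.98), and Tbc1d10a (r = 0.97), and Gadd45a by Egflam (r = 0.98) and Lrrc49 (r = 0.97). Gadd45g was followed by the kinase gene Sgk1 and by Sec61b (r = 0.97 each), Gadd45b by Pan2 (r = 0.94) and Arhgef6 (r = 0.93), and Btg2 by the salt-inducible kinase gene Sik1 (r = 0.96) and Acaca (r = 0.95). Ccng1 was followed by Nptn and Ccdc50 (r = 0.98 each) and Trp53inp1 by Rps4x (r = 0.99) and Tdg (r = 0.96). High values are to be had from 8 points and this many candidates. Of these 16 genes, Supt7l and Ctxn3 passed the edgeR test, both as lower, with log2 fold changes of -0.50 and -1.62 (adjusted p = 0.00982 and 0.0103). Both were picked for following Mdm2, which differed mainly between the groups. Their lower levels therefore follow from how they were picked and are no separate result.

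Other direct p53 targets did not move one way. Of 27 tested from a list of 32, 2 rose, 1 fell and 24 did not pass (median log2 fold change 0.04). The edgeR test called 8.45% of all genes tested. Counts for this list and those below are to be read against that share. Rrm2b, the p53-inducible ribonucleotide reductase subunit, rose from 24.4 ± 0.888 to 33.8 ± 4.26 CPM, a log2 fold change of 0.47 ± 0.09 (edgeR adjusted p = 0.0123), and Polk, a translesion DNA polymerase, from 16.9 to 21.0 CPM. The death receptor gene Fas fell from 6.12 ± 0.468 to 4.03 ± 0.894 CPM (-0.60 ± 0.15, edgeR adjusted p = 0.0323). With the GC trend removed the calls of Rrm2b (log2 fold change 0.23, adjusted p = 0.0586) and Polk (0.13, 0.439) ended. Without libraries E and G those of Polk (0.30, 0.186) and Fas (-0.46, 0.204) ended, and scaling by library size alone ended that of Fas (-0.53, 0.0625). Leaving out 1 library ended the call of Fas (any but H, highest adjusted p = 0.103) and of Polk (any but B or C, 0.115).

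Some p53 targets were chosen for mention after their values were seen. The mTOR inhibitor gene Ddit4, induced by stress and by glucocorticoids, was at 40.0, 159, 110 and 15.4 CPM in libraries A to D (control) and at 22.1, 8.94, 20.0 and 17.4 CPM in E to H. As for Gadd45g, libraries B and C were highest and D lowest in control, and the log2 fold change of -2.25 ± 0.74 did not pass (edgeR adjusted p = 0.109). Eda2r, a receptor of the tumour necrosis factor family, averaged 16.0 ± 5.03 and 26.6 ± 2.57 CPM without overlap and did not pass (adjusted p = 0.0640). Phlda3 (209 and 173 CPM), Aen (56.0 and 55.2), Zmat3 (12.9 and 14.9), Bax (9.38 and 8.19) and Sesn1 (21.6 and 21.5) did not pass either (lowest adjusted p = 0.239).

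Among 19 tested regulators of p53 and members of its family, 3 rose, none fell and 16 did not pass (median log2 fold change 0.15). Trp63, which encodes the relative p63, rose from 8.16 ± 1.29 to 11.6 ± 1.12 CPM, the damage-sensing kinase gene Atm from 7.65 to 10.2 CPM and the deacetylase gene Sirt1 from 8.58 to 11.4 CPM (log2 fold changes 0.51, 0.42 and 0.41, edgeR adjusted p = 0.0262, 0.0368 and 0.0308). All 3 calls ended with the GC trend removed (0.40, 0.27 and 0.29, adjusted p = 0.0673, 0.216 and 0.0961) and without libraries E and G (0.52, 0.46 and 0.44, adjusted p = 0.127, 0.130 and 0.0892). With 1 library left out they ended for Trp63 without A, D, G or H (highest 0.0740), for Atm without any but B or H (0.0949) and for Sirt1 without A, C, F, G or H (0.104).

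Around Cdkn1a in the cell cycle, none of the 5 other CDK inhibitors tested was called by edgeR, DESeq2 or limma-voom, and 1 had an unadjusted p under 0.05. This was Cdkn2c, which encodes the Cdk4 and Cdk6 inhibitor p18, at 9.84 and 12.7 CPM (edgeR adjusted p = 0.111). Of 17 G1 cyclin, kinase, Rb and E2F genes 3 rose and 14 did not pass (median 0.05). The cyclin gene Ccne2 rose from 5.00 ± 1.32 to 8.60 ± 1.58 CPM, a log2 fold change of 0.78 ± 0.19 (edgeR adjusted p = 0.0308), and the E2F genes E2f3 from 18.7 to 22.9 CPM and E2f6 from 170 to 201 CPM. For Ccne2 the groups overlapped, with control library D at 6.86 CPM and library E at 6.74 CPM. Of 18 proliferation genes none was called by edgeR, DESeq2 or limma-voom, with 1 at an unadjusted p under 0.05, a median of -0.23 and summed levels of 55.3 to 61.4 CPM in control and 53.2 to 59.0 CPM in the other group. That gene was Mcm3, a subunit of the replicative helicase, at 4.37 and 3.45 CPM (adjusted p = 0.118). Without libraries E and G the calls of Ccne2 (0.94, adjusted p = 0.0673), E2f3 (0.29, 0.146) and E2f6 (0.27, 0.125) ended, and with the GC trend removed that of Ccne2 (0.47, 0.117). Leaving out 1 library ended those of Ccne2 (each of A, C, F, G and H, up to an adjusted p = 0.0847), E2f3 (C, G or H, 0.0848) and E2f6 (any but B or E, 0.106).

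Among genes of the Btg2 family and of the deadenylase, Tob2, an antiproliferative member of that family, was at 126, 148, 158 and 88.7 CPM in libraries A to D (control). Libraries E to H held 65.2, 48.7, 69.9 and 59.5 CPM. The groups did not overlap, and Tob2 fell by 1.10 ± 0.18 on the log2 scale (edgeR adjusted p = 0.0109; -1.27 and 0.0557 without E and G). Cnot7, a catalytic deadenylase subunit, rose from 42.5 to 55.5 CPM (0.39, adjusted p = 0.0283), and the other 14 of 16 tested genes of that list did not pass. The call of Cnot7 ended with the GC trend removed (0.13, adjusted p = 0.222), without E and G (0.45, 0.0642) and on leaving out A, C, F, G or H singly (highest 0.0946).

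Among 11 tested Gadd45 partners and kinases of the same pathways, Map2k3, a kinase that activates p38, fell and 10 did not pass. It was at 191, 215, 208 and 185 CPM in libraries A to D (control) and at 158, 128, 152 and 139 CPM in E to H. The groups did not overlap, and the log2 fold change was -0.47 ± 0.08 (edgeR adjusted p = 0.00958), a call kept under each of the 17 alternatives. None of 9 genes around cyclin G was called by edgeR, where 3 had an unadjusted p under 0.05, and 2 were called by DESeq2 and 2 by limma-voom. Over all genes, DESeq2 called 13.8% and limma-voom 12.7%. The smallest p there was that of Ppp2r5e, a regulatory subunit of protein phosphatase 2A, at 38.4 and 45.8 CPM (log2 fold change 0.25, adjusted p = 0.0721).

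Genes of stress and activity programmes linked to the 8 genes were compared as well, and whether these programmes act on the 8 genes here was not tested. Of 23 tested immediate-early genes, 3 fell, none rose and 20 did not pass (median log2 fold change -0.32). Nr4a1, an orphan nuclear receptor, fell from 252 ± 47.1 to 138 ± 19.3 CPM, a log2 fold change of -0.87 ± 0.14 (edgeR adjusted p = 0.00830), its relative Nr4a3 from 7.88 to 3.97 CPM and Atf3, a stress-induced repressor, from 10.7 to 5.21 CPM. The summed level of the list was 649, 556, 662 and 455 CPM in libraries A to D (control), lowest in D, and 412, 453, 405 and 344 CPM in E to H, lowest in H. Libraries D and H were also the lowest of their groups for Gadd45g and Btg2, and the part of this in those genes was not tested. Of 12 tested ATF4 and ATF4 target genes, Atf3, on that list too, and Eif4ebp1 fell (34.6 to 22.1 CPM for Eif4ebp1, adjusted p = 0.0499) and 10 did not pass, with a median of -0.08.

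Without libraries E and G the calls of Nr4a1 (-0.80, adjusted p = 0.0826), Nr4a3 (-0.85, 0.196), Atf3 (-1.21, 0.111) and Eif4ebp1 (-0.77, 0.121) ended. With no low-count filter those of Nr4a3, Atf3 and Eif4ebp1 ended (adjusted p = 0.0974, 0.0952 and 0.127), with the GC trend removed those of Atf3 and Eif4ebp1 (0.0588 and 0.0804), and with DESeq2 size factors that of Eif4ebp1 (0.0530). Leaving out 1 library ended the calls of Nr4a3 (any but C or H, highest adjusted p = 0.102), Atf3 (any but B or D, 0.0882) and Eif4ebp1 (any but B or E, 0.135).

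Of 13 tested denervation response genes, 1 rose, 2 fell and 10 did not pass (median log2 fold change -0.34). Hdac4, a deacetylase that acts upstream of Gadd45a in denervated muscle, rose from 36.4 ± 2.30 to 46.5 ± 1.54 CPM, a log2 fold change of 0.35 ± 0.06 (edgeR adjusted p = 0.0103). The adhesion molecule gene Ncam1 fell from 7.52 to 4.19 CPM and the acetylcholine receptor subunit gene Chrne from 20.6 to 15.9 CPM (-0.85 and -0.37, adjusted p = 0.0156 and 0.0207). Ncam1 is also made by Schwann cells, whose 9 markers fell. The muscle regulator gene Myog, chosen after its values were seen, averaged 4.86 and 3.84 CPM and did not pass (adjusted p = 0.313). Without libraries E and G the calls of Hdac4 (0.38, adjusted p = 0.0681), Ncam1 (-0.81, 0.113) and Chrne (-0.32, 0.147) ended. That of Chrne also ended with the GC trend removed (-0.28, 0.0842), by library size alone (-0.30, 0.0517) and without C, D, G or H (highest 0.0755), and that of Ncam1 without G (0.0597).

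**Figure D4:**
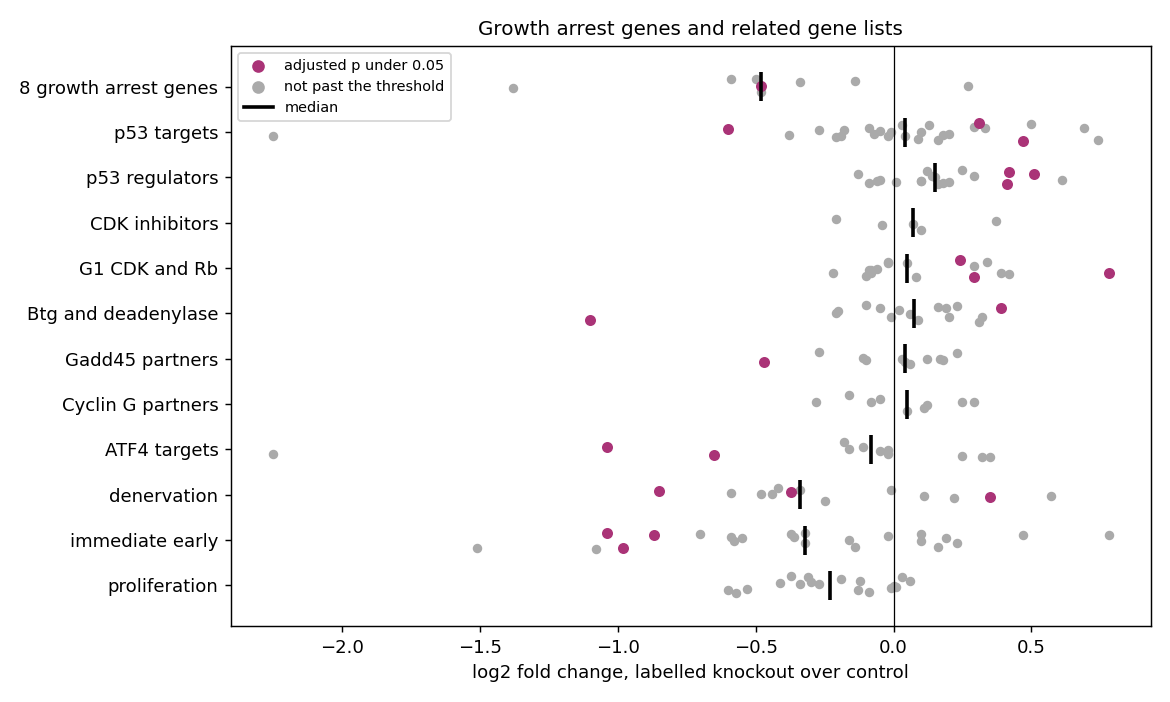
Log2 fold changes (libraries labelled knockout over control) of the 8 growth arrest genes and of the tested genes of 11 related lists, one point a gene, with purple for an edgeR adjusted p under 0.05 and a black line at each median. The median of the 8 genes is -0.48, those of p53 targets and p53 regulators are 0.04 and 0.15, and that of immediate-early genes is -0.32.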

How the data were processed

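The deposited table holds the authors' raw read counts for Ensembl genes, not normalised. Per the submitters' processing notes and the design text of the series, base calls were converted with bcl2fastq 2.17.1.14, reads were aligned to mm10 with TopHat version 2, counted with HOMER and tested with edgeR. The sources used here give neither the annotation release nor the strand setting of the counting. Per the labels' protocols the library kit keeps strand.

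Column names gave the group of each library and their numbers occur in no label, so no replicate number is tied to a library. Libraries are lettered in the order of the columns. No pair within a group agreed within sampling noise (lowest chi-square 13.1 per degree of freedom). Genes passing edgeR's filterByExpr at its defaults were scaled by TMM and compared with edgeR 4.0.16's robust quasi-likelihood test (R 4.3.3, limma 3.58.1), with no covariate. The SE is the absolute log2 fold change over the square root of F, and intervals use the fit's degrees of freedom. Only the edgeR fit with TMM was tested on simulated counts, drawn with the spread fitted to these data. The simulation held no shift of cell types, and the other steps were not tested in this way. For the growth arrest genes at these depths the libraries' spread, more than counting error, limits the precision, except for Mdm2 in control.

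The 8 genes, the related lists and the tests were chosen with earlier results of these data known. The text names the 8 genes, Nr3c1, from each related list up to 3 called genes with the smallest p (or the 1 with the smallest p), and the 2 genes most like each member, 47 genes in all. Others are marked where named. Positions and exon lengths are from GENCODE M21 (GRCm38, the assembly of mm10). Other settings tried were scaling by DESeq2 size factors, upper quartile or library size, other filters on low counts, the DESeq2 1.42.0 Wald test, limma-voom and each library left out. Removing the GC trend (lowess, span 0.3) and leaving out E and G were added after the data were seen.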

Additional observations from a re-analysis of the deposited data

Results flagged for a closer look

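Of 94 groups of 4 libraries examined (47 genes in 2 groups), 3 held a library whose gap to the nearest other was larger than Dixon's critical share of the group's range at the 95% level, and chance alone flags about 1 in 20 such groups. Gadd45a was at 28.0 CPM in control library B, where the other controls were at 12.5 to 14.5 CPM. This was the sole case among the 16 groups of the growth arrest genes. Fas was at 5.36 CPM in library H, labelled knockout, where the others of its group were at 3.49 to 3.71 CPM. Chrne was at 18.4 CPM in control library A, where the other controls were at 21.1 to 21.5 CPM.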

How the results depend on the processing

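The call of Mdm2 and its direction were the same under all 17 alternatives. The number of growth arrest genes called was 1 in each but the DESeq2 Wald test, where it was 3 (Mdm2, Cdkn1a and Gadd45g), all lower. Over all genes, 1243 were called, and 2026 by the DESeq2 Wald test, 1871 by limma-voom, 226 without libraries E and G, 685 after removal of the GC trend, and 373 (without G) to 1794 (without B) with 1 library left out. With scaling by library size only, 69.8% of calls were higher, against 47.8% with TMM, and the median log2 fold change of all genes shifted by 0.07. Among 136 values of the 8 genes under the alternatives, 133 kept their sign and side of the threshold, 2 were newly past it and 1 changed sign. Changes of sign, in 7 values of 4 genes, were all in uncalled estimates near 0, and the cause was not tested: Trp53inp1 (-0.30 to 0.01 with 1 library left out), Egflam (-0.16 to 0.02), Arhgef6 (-0.05 to 0.01, and 0.05 by library size alone) and Rps4x (-0.11 to 0.01, 0.02 by library size alone and 0.00 by limma-voom). No paired analysis was possible because no label ties the replicate numbers to the columns. Genes with few counts, such as Trp73 and Cdkn2a, did not pass the filter, and no difference was detectable for them at this depth.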
